A study of Chlamydomonas reinhardtii with 42 samples.

Results

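After 60 min of high light (HL) on the second day of growth with acetate, most genes of the green alga Chlamydomonas reinhardtii were expressed at another level than in cultures without acetate. The antenna genes of photosystem II (PSII) were higher with acetate and most of the tested carriers of inorganic carbon were lower. The comparison sets 3 libraries from cultures in Sueoka's high salt medium (HSM) supplied with 20 mM sodium acetate against 3 libraries from cultures in HSM alone, sampled 1500 min after acetate was supplied. All 6 cultures were of the wild-type strain CC-125 mt+, were kept in low light (LL, 5 µmol photons per square metre per second) until 1440 min, and were then exposed to HL (300 µmol photons per square metre per second) for 60 min. The libraries were chosen by the medium, light and time in their labels and are 6 of the 42 libraries of the experiment. Of 17741 genes in the table, 13886 passed the filter on low counts and were tested. The whole experiment covers both media at 7 sampling points, of which LL at 1440 min, 15 min of HL on day 2 and 60 min of HL on day 1 are used here for comparison. The cells had been grown in a medium with acetate before they were moved to HSM, so that both groups share an earlier exposure to it.

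Chlamydomonas can grow on carbon dioxide alone or take up acetate as a second carbon source while it photosynthesises. When carbon dioxide is scarce it runs a carbon-concentrating mechanism (CCM), in which membrane carriers bring bicarbonate into the cell and the chloroplast and carbonic anhydrases interconvert bicarbonate and carbon dioxide close to Rubisco, the carbon-fixing enzyme. Light that exceeds what the cell can use is released as heat by qE, the fast part of non-photochemical quenching, which needs the stress-related antenna proteins LHCSR1 and LHCSR3. The other light-harvesting proteins of PSII collect light for photosynthesis.

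The acetate libraries held 31486527, 21020744 and 26392021 counts and the HSM libraries 24993260, 21443908 and 20073116, within the range of 19232757 to 34098899 over the experiment. The labels give the libraries of a group as separate replicates, and no pair of them agreed within sampling noise. The 100 most abundant genes took 40.9% to 48.0% of the counts with acetate and 49.98% to 53.73% in HSM. In a principal component analysis of the 6 libraries, the first component held 89.9% of the variance and separated the media, and the second held 5.16% and set acetate replicate 2 apart from the other acetate libraries. Levels are given below as CPM (counts scaled to a common library total) after TMM scaling, in the order of replicates 1, 2 and 3, and are not compared between genes because transcript lengths were not used.

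Acetate changed 10276 of the 13886 genes (74.0%) at an adjusted p under 0.05 (quasi-likelihood test in edgeR, adjusted by Benjamini-Hochberg over the genes tested). Of these, 5000 (36.0% of the genes tested) were higher with acetate and 5276 (38.0%) were lower. A log2 fold change of at least 1 either way was reached by 6512 of the changed genes (46.9%), 3148 of them higher (22.7%) and 3364 lower (24.2%), and of at least 4 by 143 higher and 192 lower genes. The median log2 fold change over all genes was -0.05, with a 5th percentile of -2.63 and a 95th percentile of 2.52. The 3 acetate libraries lay all above or all below the 3 HSM libraries for 10258 genes (73.9%), above for 4945 (35.6%) and below for 5313 (38.3%), a pattern for which an exact permutation test of 3 against 3 cannot give a p below 0.1. With scaling by library size alone the split was 3317 higher and 6503 lower, since that scaling moves the median over the genes tested to -0.46. In bulk samples, fewer cells that express a gene and less RNA per cell cannot be told apart.

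All 12 PSII antenna genes tested were higher with acetate, against 36.0% of all genes tested, and their median log2 fold change was 3.27. LHCBM7, which encodes a protein of the major trimeric antenna, had 4862, 3802 and 3646 CPM with acetate, against 223, 21.7 and 145 CPM in HSM. The groups were far apart, and HSM replicate 2 was about an order of magnitude below the other HSM libraries. The log2 fold change was 4.98 ± 0.73 (SE, adjusted p = 1.92e-07, edgeR), and it became 5.62 without HSM replicate 1 and 4.48 without HSM replicate 2. LHCBM3, another trimer protein, had 2213, 2070 and 1517 CPM with acetate, against 186, 42.8 and 128 CPM in HSM, a log2 fold change of 4.02 ± 0.54 (adjusted p = 2.56e-08). LHCBM1, a trimer protein that takes part in the binding of LHCSR3, had 14780, 11080 and 11510 CPM with acetate, against 1602, 421 and 1151 CPM in HSM (log2 fold change 3.56 ± 0.43, adjusted p = 2.55e-09).

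The minor antenna gene LHCB5 had 1336, 1004 and 999 CPM with acetate, against 131, 39.2 and 81.0 CPM in HSM. Its log2 fold change was 3.73 ± 0.55 (adjusted p = 2.11e-07), and HSM replicate 2 was again lowest. LHCBM9 had 55.8, 54.6 and 51.3 CPM with acetate, against 4.8, 2.41 and 4.84 CPM in HSM, without overlap, with a log2 fold change of 3.74 ± 0.33 (adjusted p = 2.17e-12). LHCBM8, LHCBM4, LHCB4, LHCBM2 and LHCBM6 followed with log2 fold changes of 3.4, 3.13, 2.74, 2.44 and 2.18. The smallest changes were those of LHCBM5 (0.95 ± 0.25, adjusted p = 0.00100) and LHCB7 (0.65 ± 0.13, adjusted p = 4.85e-05), and with library size as the only scaling neither passed the threshold (log2 fold changes of 0.58 and 0.24). HSM replicate 2 was the lowest HSM library for 11 of the 12 genes, against 40.6% of all genes tested. The trimer genes have close sequence relatives, and how reads that fit several copies were treated is not given in the sources used here, so the share of each copy is uncertain.

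**Figure D1:**
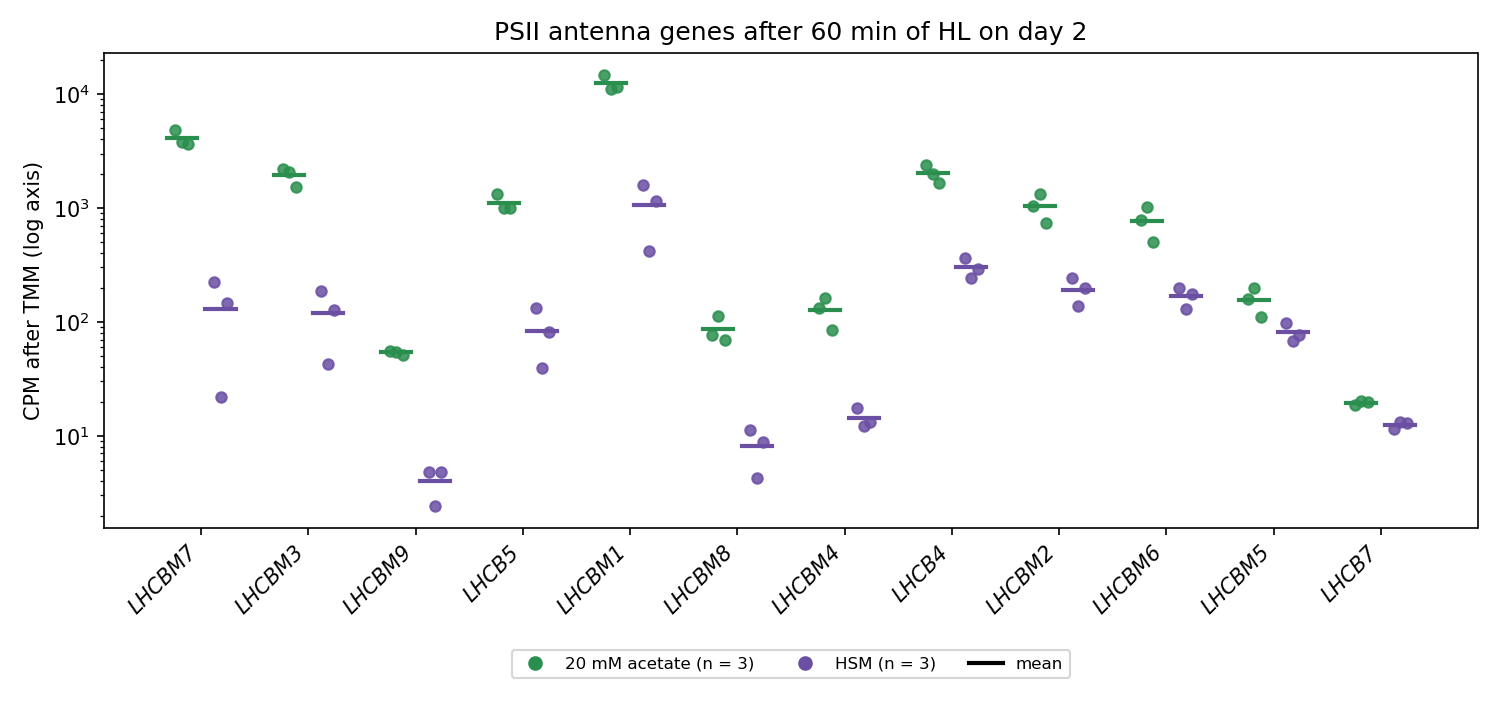
Level of the 12 PSII antenna genes in each library (points) and the group mean (bars), as CPM after TMM on a log axis, with acetate in green and HSM in purple, 3 libraries each. In every gene the 3 acetate libraries sit above the 3 HSM libraries, and in 11 of the 12 the lowest HSM library is replicate 2.

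For photosystems and electron carriers, 9 genes were chosen from those with a name in the study's tables. Of these 9, 6 were higher with acetate (66.7%, against 36.0% of all genes). Of the others, 2 were lower (22.2%, against 38.0%) and 1 did not pass the threshold, with a median log2 fold change of 1.35 over the 9. Only 6 of 47 symbols of a wider list of photosystem and electron transfer subunits could be matched, so these shares cover a small part of the group. PSBQ, an extrinsic subunit of the oxygen-evolving complex, had 1790, 1485 and 1236 CPM with acetate, against 216, 135 and 171 CPM in HSM (log2 fold change 3.11 ± 0.23, adjusted p = 1.84e-14). The PSII gene PSBR and the photosystem I genes PSAH and PSAG rose less, with log2 fold changes of 1.66, 1.64 and 1.56. The genes of these 9 that fell were PSBP4, a lumenal PsbP-like protein, and CYC6, the cytochrome that replaces plastocyanin when copper is short. PSBP2, which was not among the 9 and is given below, was lower too (log2 fold change -3.01). CYC6 was a low gene, with 1.5, 0.906 and 1.94 CPM with acetate, against 12.4, 11.6 and 9.72 CPM in HSM (log2 fold change -2.96 ± 0.28, adjusted p = 7.02e-12).

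The early light-inducible genes encode small chlorophyll-binding proteins made under light stress, and 5 of 10 symbols could be matched to the counts. Of these 5, 4 were higher with acetate (against 36.0% of all genes) and 1 was lower (against 38.0%). ELI4 had 38.9, 31.6 and 44.95 CPM with acetate, against 5.93, 6.89 and 3.92 CPM in HSM (log2 fold change 2.79 ± 0.22, adjusted p = 5.99e-14). ELI3 rose by 2.55 on the log2 scale, while ELI2 fell by 0.81, and neither had overlapping groups. Only 4 of 31 starch gene symbols could be matched to the counts, and these 4 were higher (against 36.0% of all genes), the branching enzymes SBE4, SBE1 and SBE3 by 2.05, 1.5 and 0.61 and the granule-bound starch synthase STA2 by 0.84 on the log2 scale. SBE3 did not pass when libraries were scaled by size alone (log2 fold change 0.23).

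The small subunit of Rubisco is encoded by 2 neighbouring genes, and these did not respond alike. RBCS1 had 1491, 1453 and 1153 CPM with acetate, against 265, 217 and 233 CPM in HSM, so that the groups lay well apart (log2 fold change 2.52 ± 0.17, adjusted p = 2.85e-15). RBCS2 had 6801, 4655 and 6030 CPM with acetate, against 6706, 7048 and 6112 CPM in HSM, and its overlapping groups did not pass the test (log2 fold change -0.18 ± 0.24, adjusted p = 0.493). No test compared the genes with each other, and with scaling by library size RBCS2 passed as lower (log2 fold change -0.62). Of 6 genes of Rubisco and the pyrenoid, the compartment that holds the enzyme, 2 were higher (33.3%, against 36.0% of all genes), 1 was lower and 3 did not pass. EPYC1, the linker of the pyrenoid matrix, was higher by 0.50 ± 0.21 on the log2 scale (adjusted p = 0.0354), but this call was lost without any one of 5 of the 6 libraries, at log2 fold changes of 0.44 to 0.52. It was also lost with a stricter filter on low counts (0.44) and with library size scaling (0.09). SMM7, of the same list, had a log2 fold change of -0.59 (adjusted p = 0.0195), a call lost without acetate replicate 2.

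The CCM genes moved in both directions. Of 71 tested genes of the study's CCM list, 29 were higher (40.8%, against 36.0% of all genes), 27 were lower (38.0%, the same share as of all genes) and 15 did not pass, with a median log2 fold change of 0.02. Scaled by library size alone, 17 were higher. Among tested genes of this list with a mean of at least 10 CPM in HSM, the largest falls were in the regulator LCR1 and in genes for mitochondrial carbonic anhydrases and bicarbonate carriers. Below that level, the pyrenoid prey gene Cre10.g452250 had at most 1 count in any acetate library and 0.533, 0.351 and 0.813 CPM in HSM, at least 4.64-fold lower with acetate against a floor of 3 counts per library. LCR1, a MYB-type transcription factor of low-carbon-dioxide responses, had 0.0366, 0.371 and 0.485 CPM with acetate, which is 1 to 11 counts per library, against 50.3, 58.0 and 56.0 CPM in HSM. No acetate library came near the HSM level, with a log2 fold change of -7.56 ± 0.44 (adjusted p = 2.84e-17). CIA5, the master regulator of the CCM, had 88.8, 81.9 and 98.8 CPM with acetate, against 73.0, 73.6 and 80.5 CPM in HSM, higher by 0.25 ± 0.10 on the log2 scale (adjusted p = 0.0211). That small difference did not pass without acetate replicate 3 (log2 fold change 0.17), without HSM replicate 1 (0.22) or without HSM replicate 2 (0.23), and it turned negative with library size scaling (-0.18). Nor did it pass in a model of the 6 libraries alone (0.22, adjusted p = 0.142, edgeR), and it passed in 8 of 16 alternatives.

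For inorganic carbon transport, 6 of 9 symbols could be matched to the counts. Of these 6 genes, 5 were lower with acetate (83.3%, against 38.0% of all genes) and 1 was higher, and none had overlapping groups (73.9% of all genes had none). HLA3, an ABC transporter of bicarbonate in the plasma membrane, had 93.8, 62.1 and 157 CPM with acetate, against 4380, 4834 and 5055 CPM in HSM, a log2 fold change of -5.51 ± 0.44 (adjusted p = 1.63e-13). LCI1, a low-carbon-dioxide-inducible membrane protein, had 17.9, 18.2 and 14.9 CPM with acetate, against 405, 406 and 479 CPM in HSM (log2 fold change -4.66 ± 0.39, adjusted p = 4.11e-13). LCIA, which carries bicarbonate across the chloroplast envelope, had 86.6, 55.7 and 119 CPM with acetate, against 1023, 1022 and 1194 CPM in HSM (log2 fold change -3.63 ± 0.47, adjusted p = 1.19e-08). For HLA3 and LCIA acetate replicate 2 was lowest and replicate 3 highest, while the HSM libraries lay close together. CCP2 and LCI11 fell by 1.77 and 0.89 on the log2 scale. The exception was BST1, a bestrophin-like thylakoid channel, which had 307, 271 and 393 CPM with acetate, against 69.2, 66.7 and 89.0 CPM in HSM. It was higher in every acetate library than in any HSM library, with a log2 fold change of 2.11 ± 0.35 (adjusted p = 1.70e-06).

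Of 9 carbonic anhydrase symbols, 8 could be matched to the counts, and CAH1 was not among them. Of these 8 genes, 4 were higher (against 36.0% of all genes), 3 were lower (37.5%, against 38.0%) and 1 did not pass. Among the 8, the mitochondrial enzymes CAH4 and CAH5, adjacent genes with near-identical products, fell most. CAH4 had 81.2, 28.9 and 165 CPM with acetate, against 4978, 5878 and 4948 CPM in HSM, a log2 fold change of -5.84 ± 0.68 (adjusted p = 1.32e-09) that was -6.58 without acetate replicate 3 and -5.42 without acetate replicate 2. CAH5 had 44.1, 24.2 and 67.1 CPM with acetate, against 2147, 2359 and 2247 CPM in HSM (log2 fold change -5.64 ± 0.58, adjusted p = 8.25e-11). In both genes the acetate libraries differed more among themselves than the HSM libraries did, in the order of replicates 3, 1 and 2 from high to low. CAH6 fell by 0.88 on the log2 scale. The genes that rose were CAH7, CAH9, CAH8 and the thylakoid lumen enzyme gene CAH3, and for CAH7 the values were 103, 89.2 and 91.2 CPM with acetate, against 14.43, 12.0 and 12.7 CPM in HSM (log2 fold change 2.86 ± 0.16, adjusted p = 1.38e-17). CAH9, CAH8 and CAH3 followed with 2.1, 1.12 and 0.49 on the log2 scale, and CAH3 did not pass with library size scaling (0.07).

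The LCIB family holds stromal proteins that recapture leaked carbon dioxide around the pyrenoid. LCIB had 2508, 2155 and 2834 CPM with acetate, against 1553, 1457 and 1504 CPM in HSM, and was higher by 0.73 ± 0.22 on the log2 scale (adjusted p = 0.00394). Its partner LCIC moved the other way, with 1578, 1370 and 1859 CPM with acetate, against 2305, 2511 and 2533 CPM in HSM (log2 fold change -0.61 ± 0.20, adjusted p = 0.00600). With library size scaling LCIB no longer passed (0.30). LCID and LCIE fell further, by 2.63 and 2.41 on the log2 scale. HPR1, the hydroxypyruvate reductase of photorespiration, fell by 2.04, with 82.3, 68.5 and 81.5 CPM with acetate, against 339, 280 and 334 CPM in HSM. TEF9, a thylakoid-enriched protein of the CCM list, rose by 1.95 on the log2 scale.

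The genes of qE did not share a direction. LHCSR3.1 and LHCSR3.2, neighbouring genes that encode LHCSR3, were lower with acetate, LHCSR1 was higher, and neither PSBS gene passed the test. LHCSR3.1 had 74.4, 33.1 and 135 CPM with acetate, against 1783, 1900 and 1888 CPM in HSM, a log2 fold change of -4.52 ± 0.45 (adjusted p = 4.29e-11). LHCSR3.2 had 173, 95.4 and 257 CPM with acetate, against 2059, 2215 and 2202 CPM in HSM (log2 fold change -3.62 ± 0.43, adjusted p = 1.76e-09). LHCSR1 had 511, 352 and 601 CPM with acetate, against 89.6, 134 and 122 CPM in HSM, and rose by 2.08 ± 0.27 on the log2 scale (adjusted p = 1.44e-08). In each of these 3 genes the acetate and HSM libraries did not overlap, and acetate replicate 3 was the highest and replicate 2 the lowest acetate library.

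PSBS1 and PSBS2 encode a short-lived helper of qE that is made in the first minutes of strong light. PSBS1 had 6.23, 4.12 and 16.6 CPM with acetate, against 7.50, 13.9 and 9.17 CPM in HSM (log2 fold change -0.18 ± 0.31, adjusted p = 0.603). PSBS2 had 5.72, 3.33 and 22.1 CPM with acetate, against 8.38, 24.4 and 11.5 CPM in HSM (log2 fold change -0.51 ± 0.38, adjusted p = 0.217). The groups overlapped in both genes, with acetate replicate 3 above and the other acetate libraries below all HSM libraries for PSBS1. Without acetate replicate 3 both passed as lower, with log2 fold changes of -0.97 for PSBS1 and -1.69 for PSBS2. Leaving out other single libraries turned the sign, without a pass. PSBS1 was at 0.02 without acetate replicate 1, 0.16 without acetate replicate 2 and 0.10 without HSM replicate 2. PSBS2 was at 0.05 without HSM replicate 2. PSBS2 also passed as lower with limma-voom (-0.84, adjusted p = 0.0316) and with library size scaling (-0.99, adjusted p = 0.0195). Of other photoprotection genes, STT7, the kinase of state transitions, fell by 0.42 and ZEP1, the zeaxanthin epoxidase, by 0.96 on the log2 scale. CAS, a thylakoid calcium sensor that the paper describes as a regulator of qE, rose by 1.05.

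**Figure D2:**
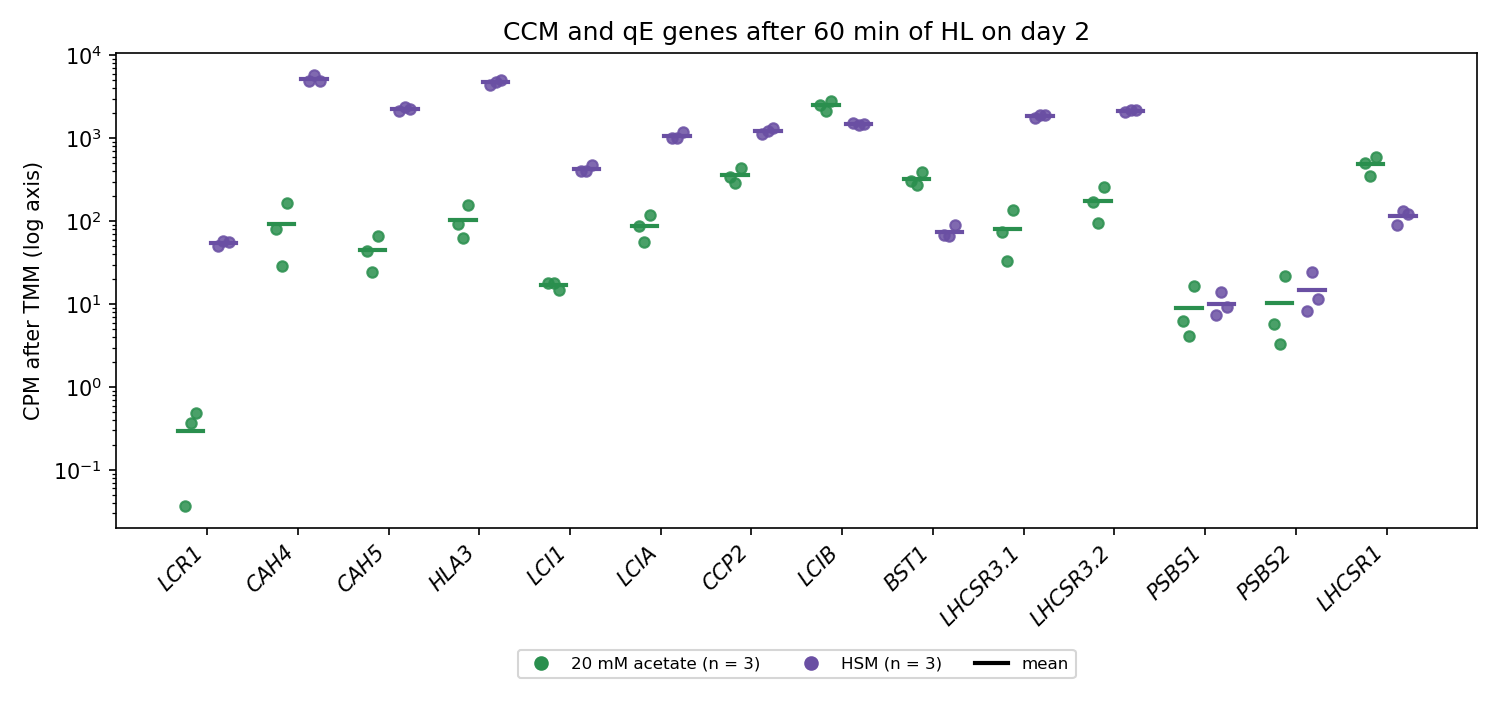
Level of 14 CCM and qE genes in each library (points) and the group mean (bars), as CPM after TMM on a log axis, with acetate in green and HSM in purple, 3 libraries each. LCR1, CAH4, CAH5, HLA3, LCI1, LCIA, CCP2 and both LHCSR3 genes are lower with acetate, LCIB, BST1 and LHCSR1 are higher, and the groups overlap for PSBS1 and PSBS2.

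Of 18 tested genes of light sensing and signalling, 11 were lower with acetate (61.1%, against 38.0% of all genes), 3 were higher (16.7%, against 36.0%) and 4 did not pass. PHOT1, the blue light receptor phototropin, had 166.5, 176.2 and 162.0 CPM with acetate, against 147.3, 155.5 and 150.1 CPM in HSM, and did not pass (log2 fold change 0.16 ± 0.10, adjusted p = 0.177). Its value ranged from -0.24 to 0.25 over the alternatives and passed as higher in 2 of 16, with RLE scaling and with DESeq2. All 8 rhodopsin genes fell, against 38.0% of all genes tested, with a median log2 fold change of -1.29. COP9, the gene that fell most among them, had 3.63, 3.75 and 3.53 CPM with acetate, against 32.6, 33.2 and 34.7 CPM in HSM (log2 fold change -3.20 ± 0.16, adjusted p = 8.27e-19). The libraries of each medium lay close together, and the other 7 rhodopsins lay between -1.57 for COP8 and -0.80 for COP5, without overlap between media. UVR8, the receptor of ultraviolet B light, went the other way, with 29.9, 32.9 and 26.7 CPM with acetate, against 14.6, 13.7 and 15.6 CPM in HSM (log2 fold change 1.03 ± 0.11, adjusted p = 3.14e-10). Among 4 cryptochromes, the animal-like aCry fell by 1.5 on the log2 scale, 1 rose and 2 did not pass.

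Of 7 genes of the CRL4 list, which holds a ubiquitin ligase of light signalling, 4 were lower (57.1%, against 38.0% of all genes), 2 were higher (28.6%, against 36.0%) and 1 did not pass. COP1, placed in this list by the study's description of it, had 265, 165 and 339 CPM with acetate, against 1326, 1410 and 1229 CPM in HSM (log2 fold change -2.37 ± 0.20, adjusted p = 5.54e-13). Its symbol has the same prefix as those of several rhodopsins, and whether this identifier encodes the substrate receptor of the ligase was not checked. The adapter gene DDB1 and the scaffold gene CUL4 fell by 1.83 and 0.92 on the log2 scale, and DET1 rose by 1.41. Of the regulators of the response to singlet oxygen, a reactive product of excess light, SAK1 was higher by 1.40 on the log2 scale and SOR1 lower by 1.09. PSBP2, a chloroplast protein linked to the same response, had 0.733, 0.494 and 0.353 CPM with acetate, against 4.45, 3.89 and 4.73 CPM in HSM (log2 fold change -3.01 ± 0.27, adjusted p = 2.61e-12).

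**Figure D3:**
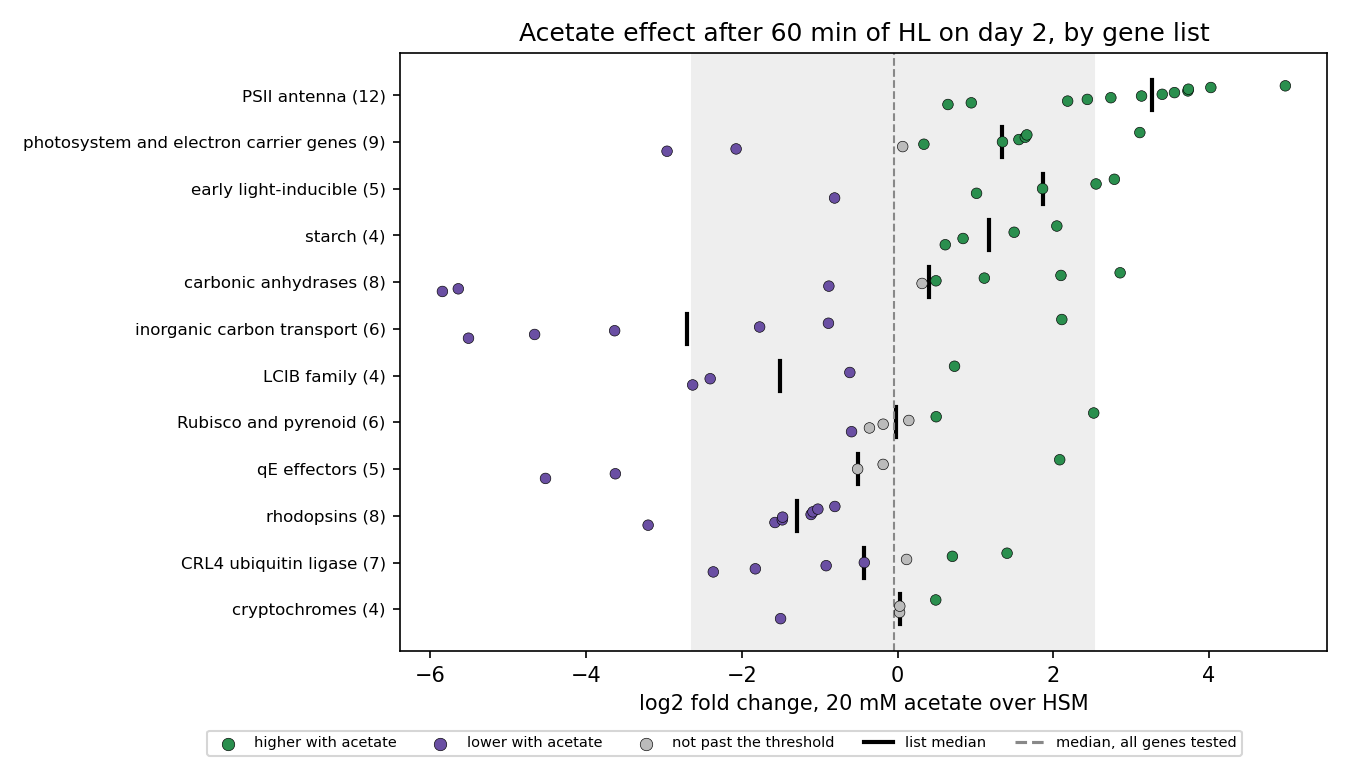
Log2 fold change of acetate over HSM for each tested gene (points) of 12 gene lists, with list sizes in brackets, coloured by call. Black bars are list medians, the dashed line is the median of all genes tested (-0.05) and the grey band runs from their 5th to their 95th percentile (-2.63 to 2.52). By median, PSII antenna genes (3.27) lie furthest to the right and inorganic carbon transport genes (-2.70) furthest to the left, with BST1 as the single transport gene above 0.

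Of 371 tested transcription factors and other regulators of the study's list, 134 were higher, 146 were lower and 91 did not pass, shares of 36.1% and 39.4% against 36.0% and 38.0% of all genes, with a median log2 fold change of -0.01. With library size scaling, 74 were higher. In the 5 families with most tested genes, 7 were higher and 16 lower of 31 MYB-related genes, 9 and 13 of 26 TRAF genes, 7 and 11 of 25 GNAT genes, 9 and 10 of 24 SBP genes, and 10 and 8 of 22 bZIP genes. Among transcription factors with a mean of at least 10 CPM in the higher medium, the largest falls below LCR1 were those of Cre08.g385350 of the AP2-EREBP family, with 0.330, 0.700 and 0.706 CPM with acetate, against 51.3, 50 and 56.6 CPM in HSM (log2 fold change -6.52 ± 0.27, adjusted p = 4.42e-21), and Cre08.g364050, Cre16.g677382 and Cre12.g507500, at -4.62, -4.50 and -4.04. All 3 are of MYB or MYB-related type. With the same limit on the level, the largest rises were those of Cre09.g401219, with 66.6, 64.7 and 68.6 CPM with acetate, against 4.86, 5.18 and 4.92 CPM in HSM (log2 fold change 3.74 ± 0.19, adjusted p = 3.67e-19), followed by Cre03.g174150, Cre12.g489000, Cre12.g495100 and Cre06.g304250 with 3.23, 3.01, 2.96 and 2.92. Of 15 tested regulators of qE that the study ranked using these libraries, a choice that is no independent evidence of direction, 6 were higher, 7 were lower and 2 did not pass. LCI8, QER4, QER7 and QER5 rose by 2.37, 1.11, 1.07 and 0.92 on the log2 scale. LCR1, Cre08.g364050, Cre16.g676421 and QER6 fell by 7.56, 4.62, 1.1 and 0.88. In the paper, mutants of QER4 and QER6 and an LCI8 overexpressor showed no effect on qE transcripts after HL. The paper regards LCI8 as a likely member of arginine synthesis rather than a regulator. It reports that LCR1 and QER7 do regulate qE genes. QER7 did not pass with library size scaling (0.63).

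With the same limit on the level, the largest changes were in genes without a name in the tables used here. Cre04.g223100 had 0.843, 0.535 and 0.485 CPM with acetate, against 4671, 4036 and 4620 CPM in HSM, a log2 fold change of -12.77 ± 0.66 (adjusted p = 9.68e-19). In the RefSeq order of genes it lies directly beside CAH2, in a run of 11 genes from CCP2 to LCIE. Of these 11, 9 passed the test (against 74.0% of all genes), 6 as lower (against 38.0%) and 3 as higher (against 36.0%). Cre10.g426800 had 2 to 5 counts per library with acetate and 403, 502 and 439 CPM in HSM (log2 fold change -11.79 ± 0.77, adjusted p = 5.26e-16), and the next 2 genes in the order, Cre10.g426850 and Cre10.g426900, held at most 1 count in any acetate library. Against a floor of 3 counts per acetate library, Cre10.g426850 was at least 60.4-fold lower and Cre10.g426900 at least 37.5-fold lower. In the other direction, Cre12.g546550 had 262, 305 and 190 CPM with acetate, against 0.502, 0.0779 and 0.222 CPM in HSM (log2 fold change 9.79 ± 0.45, adjusted p = 5.57e-20). Cre14.g615400 had 34.5, 73.0 and 23.5 CPM with acetate and 2 to 4 counts per library in HSM (log2 fold change 8.62 ± 0.41, adjusted p = 1.44e-19). In all, 7 genes with at least 10 CPM in HSM held at most 3 counts in each acetate library, and they were at least 99.9-fold to 1215-fold lower. No gene showed the reverse pattern.

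The acetate effect after 60 min of HL was another than that in LL just before. The difference of the 2 effects passed the test for 8508 of 13886 genes (61.3%). For the genes named next, the acetate level in LL was far below the HSM level. BST1 averaged 0.954 ± 0.306 CPM with acetate, against 122 ± 49.1 CPM in HSM, at 1440 min in LL (SD, n = 3 each), and 324 ± 62.4 against 74.97 ± 12.21 CPM after 60 min of HL. LCIA averaged 0.236 ± 0.104 CPM with acetate, against 403 ± 97.6 CPM in HSM, in LL, and 87.0 ± 31.5 against 1080 ± 98.9 CPM after 60 min of HL. The acetate effect of BST1 was higher by 9.12 ± 0.59 on the log2 scale after 60 min of HL than in LL (adjusted p = 6.86e-15), that of LCIA by 7.12 ± 0.80 (adjusted p = 1.99e-09) and that of LCI1 by 6.63 ± 0.69 (adjusted p = 4.61e-10). The sizes for LCIA and LCI1 rest on 4 to 8 and 1 to 6 counts in the acetate libraries in LL. Of the 71 CCM genes, the effect was higher after HL for 49 (31.9% of all genes) and lower for 10 (29.4%).

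For the 12 PSII antenna genes, the acetate effect was higher after HL than in LL for 7 (against 31.9% of all genes) and lower for 2 (against 29.4%). LHCBM7 averaged 5479 ± 1079 CPM with acetate, against 710 ± 531 CPM in HSM, in LL, and 4103 ± 662 against 130 ± 101 CPM after 60 min of HL. RBCS1 averaged 897 ± 25.01 CPM with acetate, against 972 ± 80.0 CPM in HSM, in LL, and 1366 ± 185 against 238 ± 24.6 CPM after 60 min of HL. For both, the lowest mean of the 4 was that of HSM after 60 min of HL. LHCSR1 averaged 4.43 ± 1.51 CPM with acetate, against 5.23 ± 1.14 CPM in HSM, in LL, then 490 ± 67.0 against 533 ± 50.9 CPM after 15 min of HL and 488 ± 126 against 115 ± 23.0 CPM after 60 min. At 15 min the acetate effect on LHCSR1 did not pass the test (log2 fold change -0.12 ± 0.26, adjusted p = 0.683), and the effect at 60 min was higher by 2.21 ± 0.37 on the log2 scale (adjusted p = 4.70e-06).

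**Figure D4:**
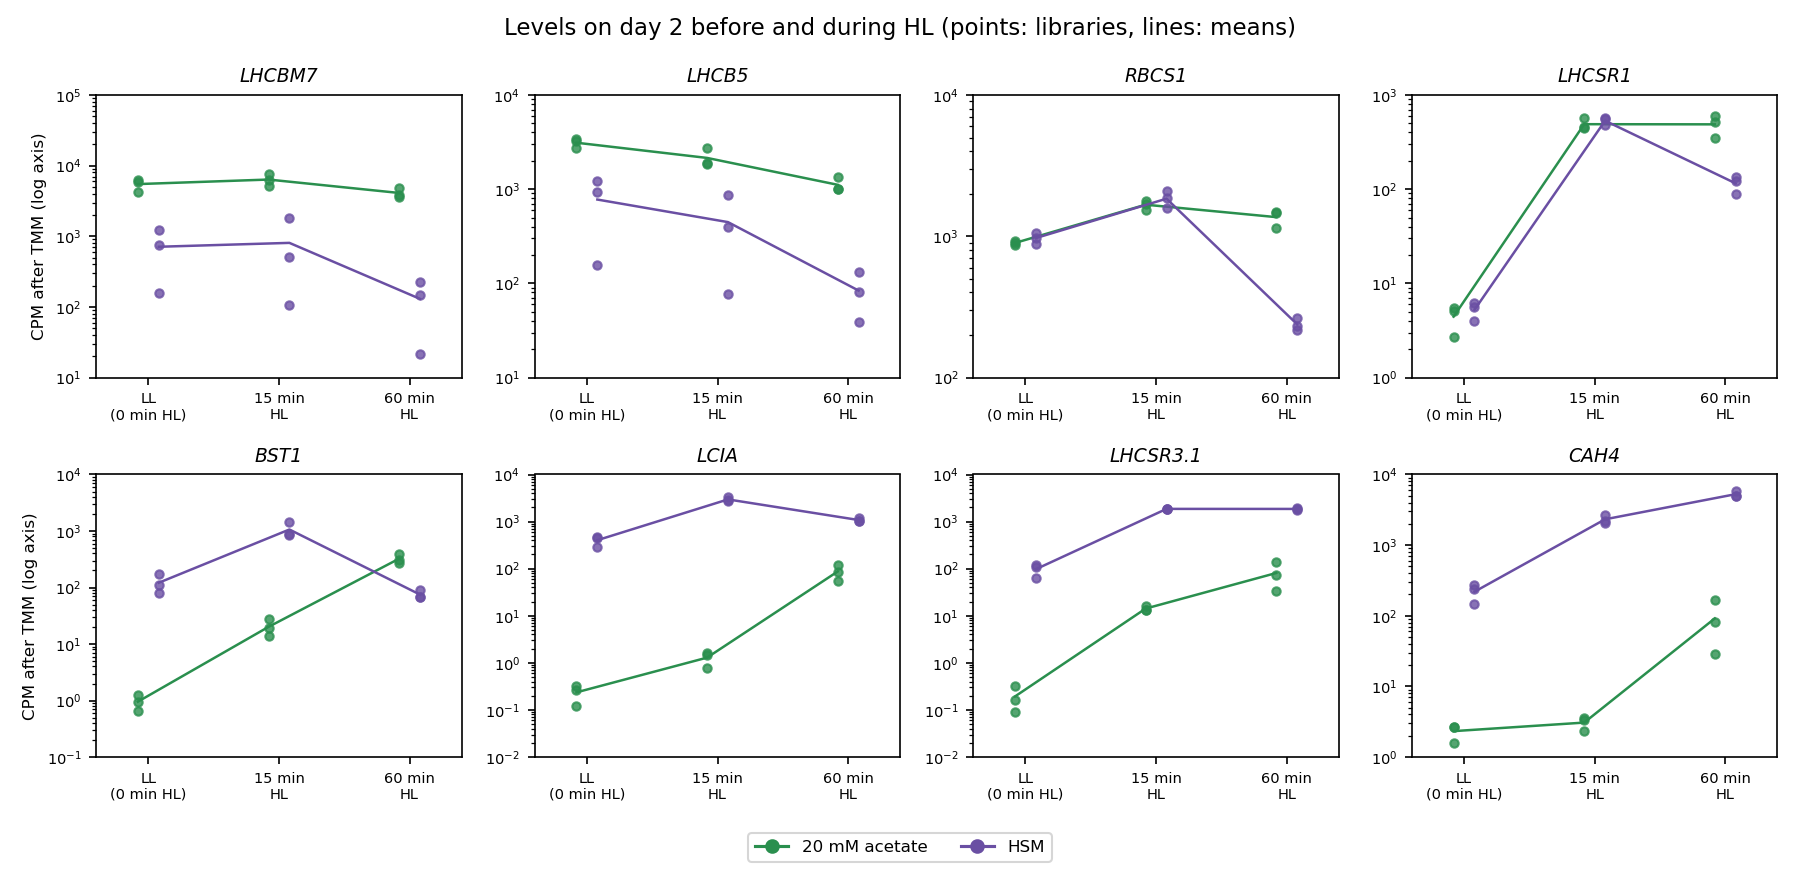
Level of 8 genes on day 2 in LL at 1440 min and after 15 and 60 min of HL, as CPM after TMM on a log axis, with libraries as points and means joined by lines, acetate in green and HSM in purple. LHCBM7, LHCB5 and RBCS1 have their lowest mean in HSM after 60 min, BST1 with acetate passes above HSM between 15 and 60 min, and LCIA, LHCSR3.1 and CAH4 with acetate climb but stay below HSM.

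Against 15 min of HL on the same day, the acetate effect differed for 8321 genes (59.9%), higher for 4289 (30.9%) and lower for 4032 (29.0%), and BST1, LCIA and LCI1 again had the largest positive differences among named genes with at least 10 CPM in 1 of the groups. LCI1 had a difference of 8.60 ± 0.66, BST1 of 7.84 ± 0.54 and LCIA of 7.55 ± 0.70 on the log2 scale, with 2 to 7 counts of LCI1 in each acetate library at 15 min. The effect on CAH4 also rose, by 3.72 ± 0.84 (adjusted p = 0.000265), with 3.07 ± 0.638 CPM with acetate, against 2322 ± 319 CPM in HSM, at 15 min. With the same limit, the named genes with the lowest differences were OPR36, by 1.74 ± 0.36, ROC75, a circadian regulator, by 1.36 ± 0.27, and LHCBM5, by 1.34 ± 0.35 on the log2 scale.

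The same exposure to HL on day 1, 300 min after acetate was supplied, gave another acetate effect for 7648 genes (55.1%), higher for 3924 (28.3%) and lower for 3724 (26.8%). On day 1 the acetate effect did not pass the test for HLA3 (log2 fold change -0.56, adjusted p = 0.206), LCIA (-0.98, adjusted p = 0.0523), CAH4 (-1.15, adjusted p = 0.0837) or LHCSR3.1 (-0.61, adjusted p = 0.197). HLA3 averaged 3024 ± 122 CPM with acetate, against 4458 ± 142 CPM in HSM, on day 1, and 104 ± 48.5 against 4756 ± 344 CPM on day 2. LCR1 averaged 16.1 ± 1.88 CPM with acetate, against 61.9 ± 10.6 CPM in HSM, on day 1, and 0.297 ± 0.233 against 54.8 ± 3.96 CPM on day 2. The acetate means of both genes were lower on day 2 than on day 1, and the HSM means of the days lay closer together. The acetate effect was lower on day 2 by 5.62 ± 0.54 for LCR1 (adjusted p = 7.47e-11), by 4.95 ± 0.55 for HLA3 (adjusted p = 1.95e-09) and by 4.69 ± 0.82 for CAH4 (adjusted p = 9.67e-06) on the log2 scale. It was higher on day 2 by 3.32 ± 0.90 for LHCBM7, 2.81 ± 0.55 for LHCBM1 and 2.59 ± 0.68 for LHCBM3, and for 9 of the 12 antenna genes in all, with none lower. The 8 rhodopsins had a lower effect on day 2 in 6 cases (against 26.8% of all genes) and a higher one in 0.

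**Figure D5:**
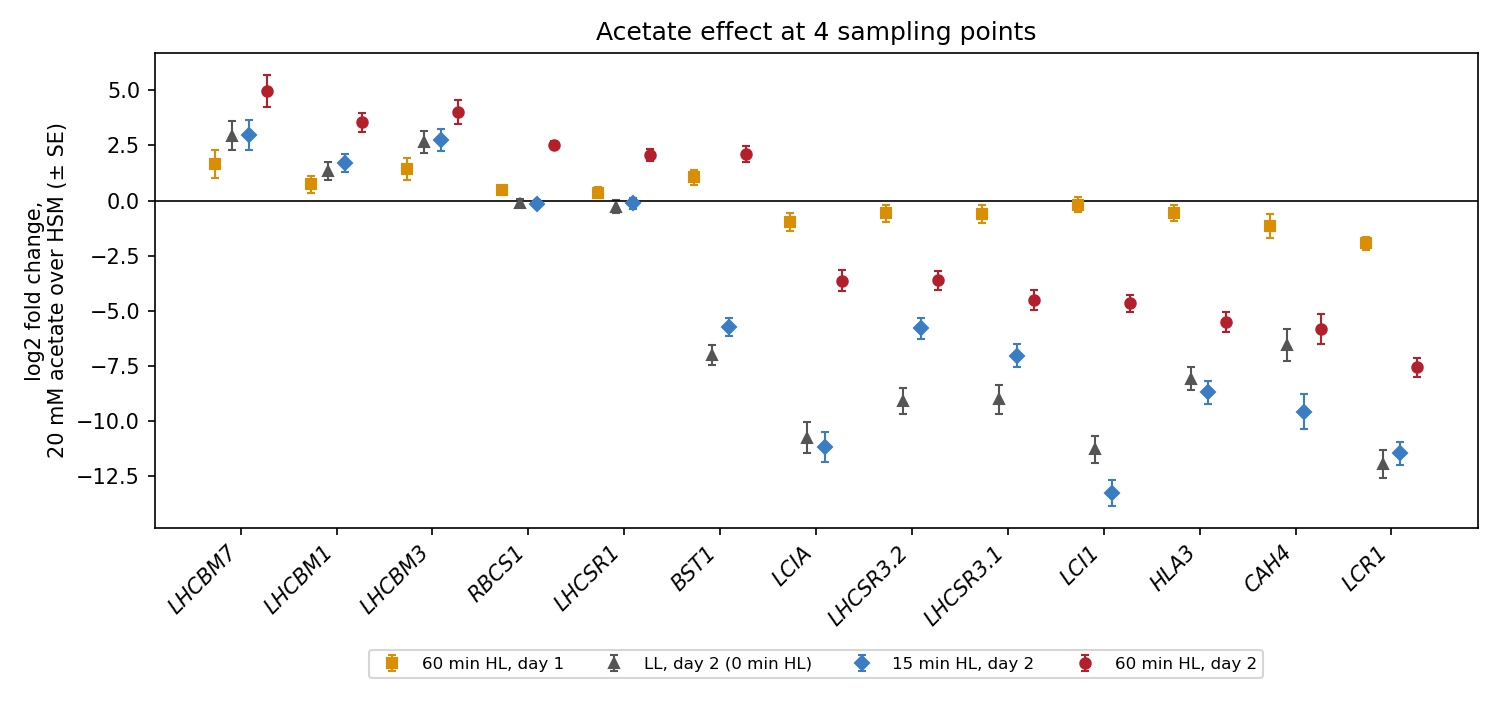
Log2 fold change of acetate over HSM, with its SE, for 13 genes after 60 min of HL on day 1, in LL on day 2, and after 15 and 60 min of HL on day 2, each from 3 libraries per medium. For LCR1 the acetate libraries in LL and at 15 min of HL on day 2 held at most 3 counts, so that the size of these 2 points depends on the prior count. After 60 min on day 2 LCIA, LCI1, HLA3, CAH4, LCR1 and the LHCSR3 genes lie below their day 1 values, and LHCBM7, LHCBM1 and LHCBM3 lie above theirs.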

How the data were processed

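The authors sequenced stranded mRNA libraries, aligned the reads to the Phytozome transcriptome with STAR (version 2.5.3 in the submitters' processing notes), counted them with HTSeq-count, and deposited raw counts per gene without normalization. TMM factors and quasi-likelihood tests (glmQLFit, glmQLFTest) came from edgeR 4.0.16 in R 4.3.3, with 1 model of all 42 libraries with a coefficient per condition, after a filter that kept genes reaching 1 CPM in 9 or more libraries. Differences between acetate effects were contrasts of the same model. p-values were adjusted by Benjamini-Hochberg over 13886 genes. SE values are derived from the test statistic. Alternatives used RLE or library size scaling, other filters, DESeq2 1.42.0, limma-voom 3.58.1, other sample sets, blocks and left-out libraries. On simulated counts for this comparison, edgeR recovered 188 of 200 changed genes (90 of 100 at a log2 fold change of 1, 98 of 100 at 2) with 17 false calls. In that simulation only 200 of 13886 genes were changed, as many up as down, and all genes had the same relative spread. It does not give the error rate for these data, where 74.0% of the genes tested changed.

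Gene names came from the study's supplementary tables, except that the identifier of BST1 was set beforehand. The CCM, transcription factor and qE regulator lists were the study's. The CRL4, rhodopsin and cryptochrome lists were drawn up from its gene descriptions and names. The other lists were written for this report and hold only members whose symbols those tables pair with a gene. The comparison and the lists were chosen with earlier results of these data known. Named genes were the study's representative CCM and qE genes, the most changed and most abundant members of each list, the most changed transcription factors and unnamed identifiers with a mean of at least 10 CPM in the higher group, and the named genes with the largest differences between acetate effects and at least 10 CPM in 1 of the groups. Lists without a named member, such as acetate assimilation, the photosystem I antenna and chaperones, were not analysed here. Of 17741 identifiers, 17738 matched RefSeq, used only for gene order. Replicate numbers did not pair the libraries: deviations of same-numbered acetate and HSM libraries correlated at 0.07, -0.06 and -0.06. Plots were drawn with matplotlib 3.10.9 in Python 3.11.15.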

Additional observations from a re-analysis of the deposited data

Results flagged for a closer look

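For 18 results the acetate effect (log2 fold change of acetate over HSM) after 60 min of HL on day 2 differed from the effect at another sampling point, tested as a difference within the same edgeR model with Benjamini-Hochberg adjustment. Each was among the 3 highest or 3 lowest differences of the named genes with at least 10 CPM in 1 of the groups at that sampling point, so they were picked for their size.

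Against LL at 1440 min the difference was 9.117 for BST1, 7.12 for LCIA and 6.627 for LCI1, and -3.786 for CYC6, -2.46 for PSBP2 and -2.452 for PSBP4. Against 15 min of HL on day 2 it was 8.598 for LCI1, 7.838 for BST1 and 7.547 for LCIA, and -1.735 for OPR36, -1.359 for ROC75 and -1.344 for LHCBM5. Against 60 min of HL on day 1 it was 3.317 for LHCBM7, 2.815 for LHCBM1 and 2.593 for LHCBM3, and -5.624 for LCR1, -4.95 for HLA3 and -4.693 for CAH4. The values of LCI1 on day 2 rest on 1 to 6 counts in LL and 2 to 7 counts at 15 min in the acetate libraries.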

How the results depend on the processing

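The count of changed genes was 8385 (stricter filter) to 10923 (no filter) over the alternatives, except 6512 with a log2 fold change of at least 1, and 9816 to 10161 with 1 library left out. The count of differences from day 1 was 4862 with a log2 difference of at least 1. With library size scaling the share of higher differences was 7.81% against LL (52.1% with TMM), 10.42% against 15 min of HL (51.5%) and 21.0% against day 1 (51.3%). With replicate number as a block, 10312 genes changed, and 8520, 8347 and 7651 differed from LL, 15 min of HL and day 1. Of 1462 alternative values for 92 named genes, 1427 kept direction and call and 6 reversed. With library size scaling CIA5 was -0.18 and PHOT1 -0.24. PSBS1 ranged from -0.97 to 0.16 and PSBS2 from -1.69 to 0.054 with 1 library left out. All 358 values of the 18 differences kept direction and call. Of 832 alternative list counts, 45 moved by over 1.5 times. Causes were not tested. Promoter motifs were not run. Genes at a few counts per library have fold changes that depend on the prior count.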

Other observations

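The second HSM library was low for antenna genes at the other sampling points of day 2 as well. Replicate 2 was the lowest HSM library for 12 of the 12 PSII antenna genes in LL at 1440 min (39.6% of all genes tested) and for 11 of the 12 after 15 min of HL (30.5%). HSM replicate 2 in LL had a TMM factor of 0.454, against 0.863 and 0.809 for replicates 1 and 3. Its 100 most abundant genes took 76.4% of the counts, against 62.2% and 64.9%. Without this library, the acetate effect after 60 min of HL differed from that in LL for 8325 genes. LHCBM7 had 1214, 155 and 762 CPM in HSM in LL at 1440 min and 505, 107 and 1806 CPM in HSM after 15 min of HL. LHCB5 had 1230, 156 and 942 CPM in HSM in LL and 393, 77.6 and 870 CPM in HSM after 15 min of HL. The titles carry a second number for each library, and for replicate 2 it is 3 in LL, 2 at 15 min and 3 at 60 min of HL, so that these libraries do not share it throughout. What that number stands for is not given in the sources used here.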
